A study of Phaffia rhodozyma with 6 samples.

Results

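The genes CED82645, CED82646 and CED82663 of the carotenoid-forming basidiomycete yeast Phaffia rhodozyma are described here. They are 3 of the 6363 genes with a row in the authors' deposited table, which names them as a ferric reductase, a FAS1 domain gene and a copper transporter. They were chosen by name from genes whose values already differed between the conditions, so their differences are given as a description without a test. The series holds 3 fermenter cultures of the mutagenised strain BPAX-A1, which the series describes as improved in astaxanthin production, and 3 of the wild-type strain CBS6938. All 6 cultures were fed sucrose, in chemically defined broth kept at pH 5.5, 20 °C and 70% dissolved oxygen, and RNA was taken in late exponential phase. No source used here names the alleles that BPAX-A1 carries.

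The authors' deposited table gives 1 FPKM value per gene (fragments per kilobase of transcript, scaled to the mapped reads, a level per length) for each of the conditions it calls q2 and q1. Each value is Cuffdiff's estimate over the cultures of a condition. No source used here says whether q2 is BPAX-A1 or CBS6938, so every direction is that of q2 relative to q1. Values of single cultures and the depth of each library are unknown, so no spread between cultures can be given. As a stand-in, an implied error (a standard error on the log2 scale) restates the authors' p-value for a log2 ratio. It covers what Cuffdiff's test covers and is not measured from the cultures here. The labels call the cultures biological replicates.

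Some facts of the whole table touch the values below. The FPKM values of q2 summed to 2.10 times those of q1, and 94 genes named as ribosomal proteins and not labelled mitochondrial held 61.2% of the sum in q2 and 39.1% in q1. The median log2 ratio of q2 over q1 was 0.11 over the 6106 genes above 1 FPKM in both conditions. The part of the ribosomal share in any difference below was not tested.

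Reductive iron uptake in fungi starts at the cell surface, where a ferric reductase passes electrons from NADPH through flavin and haem to ferric iron and releases it as ferrous iron. In Saccharomyces cerevisiae a multicopper oxidase then reoxidises the iron and the permease FTR1 carries it in. The oxidase needs copper, which Ctr-type transporters import in its reduced form, so iron uptake depends on copper supply. FAS1 (fasciclin) domains occur mainly in secreted and surface-bound proteins, many of them in cell adhesion. Astaxanthin formation itself uses a haem-containing cytochrome P450, so haem and its iron stand close to the product of this yeast.

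The ferric reductase CED82645 was the lowest of its family in q2 and among the higher ones in q1. The authors' deposited table gave 4.62 FPKM in q2 and 50.7 FPKM in q1, which is 11-fold lower in q2. Its log2 ratio was -3.46, with an implied error of at most 0.85, since its p-value stood at the floor of the table (5e-05). By level it ranked 5939 of 6363 genes in q2 and 2572 in q1. It lies on scaffold 33 from 2031955 to 2035008. Its gene ontology term in the file is that of an integral membrane component, as for the other ferric reductases.

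The FAS1 domain gene CED82646 is the next gene on that scaffold, from 2036970 to 2038849. The authors' deposited table gave it 5.28 FPKM in q2 and 57.6 FPKM in q1, a log2 ratio of -3.45 with an implied error of at most 0.85. It was 10.9-fold lower in q2. The level of the ferric reductase was 0.875 times that of its FAS1 neighbour in q2 and 0.881 times in q1, so the pair kept nearly the same ratio at both levels. Among all tested genes with a finite log2 ratio, they held places 18 and 19 from the lowest.

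The copper transporter CED82663 went the other way. The authors' deposited table lists 39.8 FPKM in q2 and 7.65 FPKM in q1, which is 5.21-fold higher in q2 (log2 ratio 2.38, implied error 0.63). It ranked 3475 of 6363 by level in q2 and 5672 in q1, and 240 from the highest by log2 ratio. Its locus is scaffold 33, 2085700 to 2086479, and its gene ontology term is copper ion transmembrane transporter activity. The q-values in the authors' deposited table were 0.00226 for the ferric reductase, 0.00226 for the FAS1 gene and 0.0057 for the copper transporter, and all 3 are among the 331 genes the authors set apart in a further sheet. These values are part of what chose the genes.

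**Figure D1:**
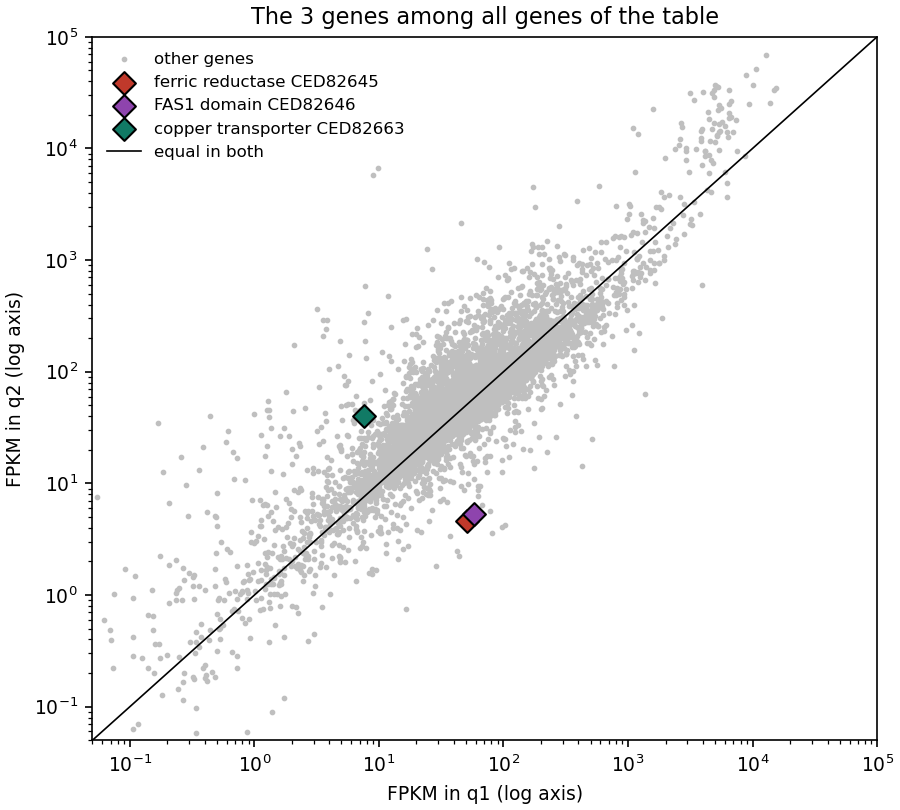
FPKM of each gene in q2 (vertical, log axis) against q1 (horizontal, log axis), with the line of equal values; 99 genes below 0.05 FPKM in either condition are not drawn. CED82645 (4.62 FPKM in q2, 50.7 in q1) and CED82646 (5.28 and 57.6) lie together below the line, and CED82663 (39.8 and 7.65) lies above it.

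The log2 ratios of the other ferric reductases ran from -1.08 to 1.13. The table names 6 genes, CED82645 included, as ferric reductase, NADH/NADPH oxidase and related proteins. That name also covers NADH/NADPH oxidases, so it does not by itself tie any of the 6 to iron uptake. Cuffdiff called none of the other 5 at a q-value below 0.05. Over all genes, 5.53% of the 6272 tested were called at that threshold, 3.65% higher and 1.88% lower in q2. The highest of the family in both conditions was CED82351 (scaffold 33, 1093533 to 1096775). It had 82.2 FPKM in q2 and 174 in q1 in the authors' deposited table (log2 ratio -1.08, implied error 0.66, q 0.475). CED83553 had 28.8 FPKM in q2 and 13.1 in q1, a log2 ratio of 1.13 with an implied error of 0.46 and a q-value of 0.146 in the authors' deposited table. The remaining 3, CDZ98418, CED83240 and CDZ97369, had log2 ratios of 0.22, -0.05 and -0.34. CED82645 made up 2.39% of the summed FPKM of the 6 genes in q2 and 16.2% in q1. The sum itself was 194 FPKM in q2 and 313 in q1, so most of the family's summed level in either condition came from other genes.

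Both copper transporters besides CED82663 were more abundant than it in each condition. CED83951 had 72.8 FPKM in q2 and 58.8 in q1, a log2 ratio of 0.31 with an implied error of 0.42 in the authors' deposited table. CED84906 had 64.0 FPKM in q2 and 74.8 in q1 (log2 ratio -0.23, implied error 0.44, q 0.898 in the authors' deposited table). Neither differed beyond its implied error. CED82663 therefore held 22.6% of the summed level of the 3 genes in q2 and 5.42% in q1. The sum was 177 FPKM in q2 and 141 in q1, a log2 ratio of 0.32.

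Of the 3 other genes with a FAS1 or fasciclin name, CED83610 was called in the direction opposite to CED82646. Over all tested genes, 5.53% were called and 3.65% were called higher in q2. CED83610 had 121 FPKM in q2 and 34.5 in q1 in the authors' deposited table (log2 ratio 1.81, implied error 0.53, q 0.0167). CED83462, with 54.4 FPKM in q2 and 64.7 in q1, and CDZ96726, with 15.6 in q2 and 18.5 in q1, each had a log2 ratio of -0.25 and were not called. The 4 genes summed to 197 FPKM in q2 and 175 in q1. CED82646 was 2.69% of that sum in q2 and 32.8% in q1.

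**Figure D2:**
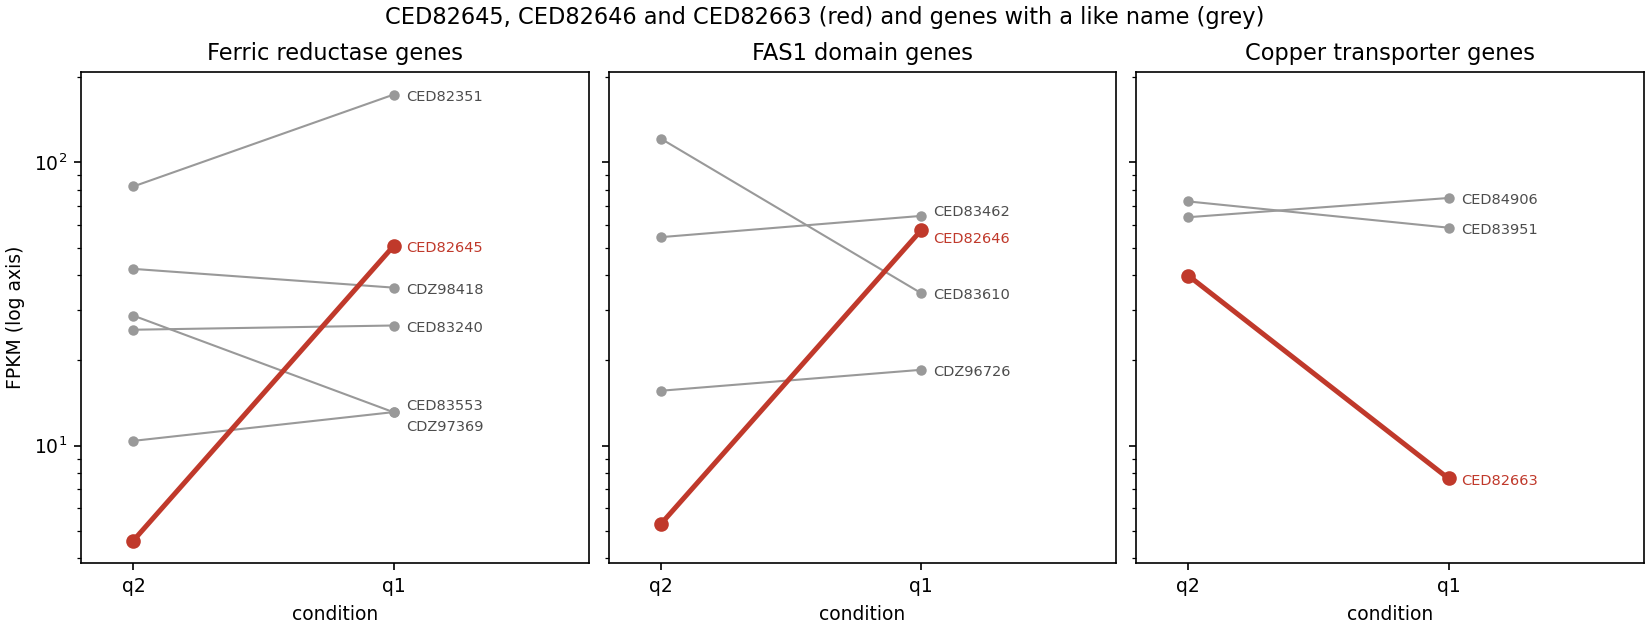
FPKM (log axis) in q2 and q1 for the 6 ferric reductase genes, the 4 FAS1 or fasciclin genes and the 3 copper transporter genes, 1 line per gene. CED82645 is the second highest ferric reductase in q1 and the lowest in q2, CED82646 is lowest of its group in q2, and CED82663 is the lowest copper transporter in both conditions.

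The other parts of reductive iron uptake were examined next, with the permeases and the oxidase. The FTR1 iron permease CED82573 (scaffold 33, 1826101 to 1828043) was the most abundant gene of the route. It had 169 FPKM in q2 and 376 in q1 in the authors' deposited table, a log2 ratio of -1.16 with an implied error of 0.72 (q 0.483). The multicopper oxidase CED83488 had 138 FPKM in q2 and 259 in q1 (log2 ratio -0.91, implied error 0.69, q 0.605 in the authors' deposited table). With CED82351, these were the 3 most abundant genes of the list in both conditions, and all had lower values in q2 without being called. The other FTR1 permease, CDZ97265, had 34.3 FPKM in q2 and 23.3 in q1 (log2 ratio 0.56). A membrane protein with DoH and cytochrome b-561/ferric reductase domains, CDZ97732, had a log2 ratio of -0.46.

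Leaving CED82645 out, the reductive iron uptake list held 9 genes. Cuffdiff called 0 of them at a q-value below 0.05 in the authors' deposited table, beside 5.53% of all tested genes. With unadjusted p-values below 0.05 counted instead, 1 (CED83553) was higher and 0 were lower, where 14.6% of all tested genes passed, 10.5% higher and 4.13% lower. The 9 genes had a median log2 ratio of -0.34, and of -0.45 once the median of 0.11 given above was taken off, beside 0.12 over all tested genes. In 3 of the 9, q2 had the higher value, both as deposited and after centring on that shift. When each condition's values were divided by its FPKM sum, which lowers every log2 ratio by 1.07, 1 of the 9 was higher.

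The copper list without CED82663 held 7 genes, of which 0 were called, where 5.53% of all tested genes were. An unadjusted p-value below 0.05, which 14.6% of all tested genes had (10.5% higher), went to 1 of the 7, which was higher. That gene, CDZ97286, has a domain of COX17, which carries copper to cytochrome c oxidase. It had 794 FPKM in q2 and 141 in q1 in the authors' deposited table, a log2 ratio of 2.49 with an implied error of 1.12 (q 0.230). The copper chaperone CDZ96843 had 213 FPKM in q2 and 273 in q1, a log2 ratio of -0.36. The copper P-type ATPase CDZ96356, whose class moves copper into the secretory route, had 12 FPKM in q2 and 15.2 in q1 (log2 ratio -0.33). CED83035, a gene with the copper-fist DNA-binding domain found in copper-responsive regulators, had a log2 ratio of 0.25, and the peroxisomal copper amine oxidase CDZ98332 one of 0.16. The 7 genes had a median log2 ratio of 0.16, and of 0.05 after centring. Of these 7, 4 had higher values in q2 as deposited and 1 after division by the FPKM sums.

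Iron can also enter fungi bound to siderophores, small chelators made by non-ribosomal peptide synthetases. Of 3 genes matched here, CDZ97946 was called (5.53% of all tested genes were), with 106 FPKM in q2 and 14.3 in q1 in the authors' deposited table (log2 ratio 2.89, implied error 0.76, q 0.0057). It is named non-ribosomal peptide synthetase/alpha-aminoadipate reductase, a name shared with an enzyme of lysine synthesis, so the name does not tie it to siderophores. CDZ97355, with the same name, had 13.1 FPKM in q2 and 20.9 in q1 (log2 ratio -0.68). CDZ97882 is named after Urbs1, the GATA-type repressor of siderophore synthesis in Ustilago maydis. It had 35.5 FPKM in q2 and 33.3 in q1, a log2 ratio of 0.09.

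Among 9 regulators named as GATA factors, Urbs1 or copper fist, 1 was called, and it was higher, where 5.53% of all tested genes were called and 3.65% were called higher. This was the GATA factor CDZ96439, with 62.6 FPKM in q2 and 18.4 in q1 in the authors' deposited table (log2 ratio 1.77, implied error 0.52, q 0.0180). GATA factors also act in nitrogen and light responses, and the file does not say which role this one has. The other 8 had log2 ratios between -0.64 and 0.86. CED82015, picked out after its values were seen and on no list, is named as a subunit of the CCAAT-binding complex that in fungi also takes part in iron regulation. It had 18.8 FPKM in q2 and 53.7 in q1 (log2 ratio -1.52, implied error 0.48, q 0.0348 in the authors' deposited table).

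Users of iron inside the cell fall into 3 lists. In haem synthesis, 1 of 13 genes was called, and it was lower, where 5.53% of all tested genes were called and 1.88% were called lower. The coproporphyrinogen III oxidase CED84228 had 9.19 FPKM in q2 and 24.4 in q1 in the authors' deposited table (log2 ratio -1.41, implied error 0.47). Its q-value of 0.0488 is the highest among all called genes. The other gene of that name, CDZ97010, had 116 FPKM in q2 and 41.9 in q1 (log2 ratio 1.47, q 0.352), and ferrochelatase CDZ96583, which inserts the iron, had 102 FPKM in q2 and 45.8 in q1 (log2 ratio 1.16, q 0.301). Porphobilinogen synthase CED82102 had the highest level of the list in both conditions, with 246 FPKM in q2 and 324 in q1 (log2 ratio -0.40, implied error 0.73). Over the haem genes the median log2 ratio was 0.37, and 0.26 after centring. After division by the FPKM sums, 2 of 13 genes were higher in q2, against 9 as deposited.

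For mitochondrial iron and iron-sulphur assembly, 0 of 21 genes were called, while unadjusted p-values below 0.05 went to 4, of which 2 were higher and 2 lower. The list was matched by words, so it also holds glutaredoxins and ferredoxins not named as mitochondrial or as assembly genes. Over all tested genes, 5.53% were called and 14.6% had such a p-value, 10.5% higher and 4.13% lower. Frataxin CDZ96472, an iron-binding protein of this assembly, had 774 FPKM in q2 and 163 in q1 in the authors' deposited table, but an implied error of 1.47 on its log2 ratio of 2.25 (q 0.515). A glutaredoxin (CDZ98218) had 125 FPKM in q2 and 374 in q1 (log2 ratio -1.58, q 0.0762), and a further glutaredoxin, CED82993, was the most abundant gene of this list, with 1993 FPKM in q2 and 1471 in q1. The list of iron and copper enzymes held 11 genes, none of them named as a copper enzyme. Of these, 1 was called and was higher, beside 3.65% of all tested genes. It was catalase 1 (CDZ96425), a haem enzyme that breaks down hydrogen peroxide. It had 272 FPKM in q2 and 31.4 in q1 in the authors' deposited table (log2 ratio 3.12, implied error 0.91, q 0.0180). The aconitate hydratase CED84433, an iron-sulphur enzyme, was the most abundant of these in both conditions (log2 ratio -0.47), and dihydroxy-acid dehydratase CED83361 was at -0.87. The medians were 0.03 for the mitochondrial list and -0.11 for the enzymes, and -0.08 and -0.22 after centring.

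Carriers of zinc, magnesium and other metals were called in 0 of 13 genes, with an unadjusted p-value below 0.05 for 1 higher gene. Over all tested genes 5.53% were called and 14.6% had such a p-value, 10.5% higher and 4.13% lower. The 13 carriers had a median log2 ratio of 0.03, and of -0.09 after centring. The extremes were the ZIP-like zinc transporter CDZ97505 (73.9 FPKM in q2, 26.1 in q1, log2 ratio 1.5) and the ZIP-like iron-zinc transporter CED85549 (50.3 FPKM in q2, 80.8 in q1, log2 ratio -0.68). The putative zinc transporter CDZ96573 was the most abundant, with 210 FPKM in q2 and 113 in q1. Among 4 other flavoreductases, enzymes that move electrons from NADH or NADPH, 0 were called and 0 had an unadjusted p-value below 0.05. Their log2 ratios ran from -0.63 for CED82181 to 1.22 for CED84935, and the most abundant, CED83089, had 572 FPKM in q2 and 759 in q1.

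Over the 10 lists without CED82645, CED82646 and CED82663 there were 91 different genes, all tested. Cuffdiff called 5 of them at a q-value below 0.05, 4 higher and 1 lower, which is 5.49% beside 5.53% of all tested genes. The unadjusted p-value was below 0.05 for 14, with 11 higher and 3 lower values in q2. Over all tested genes 14.6% had such a p-value, 10.5% higher and 4.13% lower. Under the stricter q-value limit of 0.01, 1 gene was called and was higher (CDZ97946), where 3.06% of all tested genes were called and 2.06% were called higher. Their median log2 ratio was 0.02, beside 0.12 for all tested genes. The share of calls among these 91 genes was thus near the background. The 3 genes left out are on these lists and were all called. Leaving them out therefore lowers the count of calls by construction, here and in each list that held 1 of them. The value in q2 was the higher one for 48 of the 91 as deposited, for 37 after centring and for 14 after division by the FPKM sums.

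**Figure D3:**
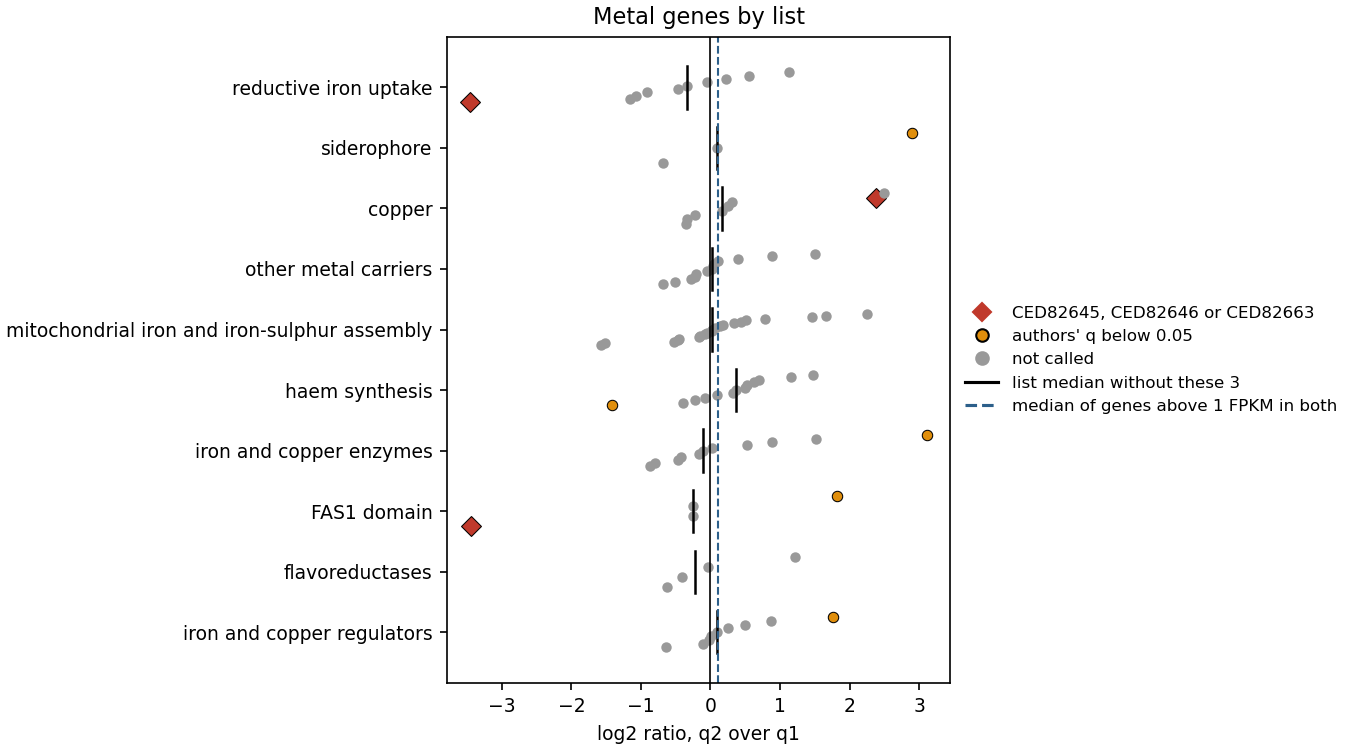
Log2 ratio of q2 over q1 (horizontal) for each gene of the 10 metal lists; diamonds are the 3 genes, orange points are other genes with an authors' q-value below 0.05, black bars are list medians without the 3 genes, and the dashed line is the median over genes that exceed 1 FPKM in q2 and in q1 (0.11). CED82645 and CED82646 lie left of every other point, at -3.46 and -3.45, and the called CDZ96425, at 3.12, lies farthest right.

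All 3 genes lie on scaffold 33, which has 660 genes in the table. The ferric reductase and its FAS1 neighbour are separated by 1961 bases, where the median gap between adjacent tested genes is 464 bases and 2.62% of pairs have a gap of that size or more. The copper transporter starts 53745 bases after the ferric reductase does, with 16 genes between it and the FAS1 gene, and no gene of the table follows it on that scaffold. The authors' locus numbers rise along the scaffold in 2 separate runs. CED82645 belongs to one run, CED82646 and CED82663 to the other. What the runs stand for, and the strand of each gene, no source used here tells.

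Of the 15 genes within 5 places of any of the 3, Cuffdiff called 2, both higher. Over all tested genes 5.53% were called, 3.65% higher and 1.88% lower. No neighbour was called lower like the pair, which for 15 genes is near that share. CED82642, an iron/ascorbate family oxidoreductase with 2 genes between it and the ferric reductase, was called with 21.6 FPKM in q2 and 4.76 in q1 in the authors' deposited table. Its log2 ratio was 2.18, with an implied error of at most 0.54 and a q-value of 0.00226. Enzymes of this family use ferrous iron and 2-oxoglutarate or ascorbate. CED82644, the last gene before the ferric reductase and named AT hook-like, had 37.8 FPKM in q2 and 27.4 in q1 (log2 ratio 0.46). CED82647, a glycerol-3-phosphate dehydrogenase and the first gene after the FAS1 gene, had 83.0 FPKM in q2 and 131 in q1 (log2 ratio -0.66). The 10 genes around the pair had a median log2 ratio of 0.71 and ran from -1.06 for the phosphatase CED82649 to 2.79 for CED82648. CED82648 was near 0 in both conditions, with 0.484 FPKM in q2 and 0.0699 in q1.

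Beside the copper transporter, the gene just before it, CED82662, is a further iron/ascorbate family oxidoreductase. It had 37.8 FPKM in q2 and 21.8 in q1 in the authors' deposited table (log2 ratio 0.79, implied error 0.42, q 0.377). CED82661, named hypothetical protein, stood opposite to the copper transporter with 9.98 FPKM in q2 and 51.5 in q1 (log2 ratio -2.37, implied error 0.81) and missed the threshold at a q-value of 0.0583 in the authors' deposited table. The oxoprolinase CED82660 had a log2 ratio of 1.02 and the class V alcohol dehydrogenase CED82659 one of -0.56. The photolyase/cryptochrome CED82658, which repairs DNA or senses light, was the called gene on this side, with 479 FPKM in q2 and 11.9 in q1 (log2 ratio 5.34, implied error 1.41).

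**Figure D4:**
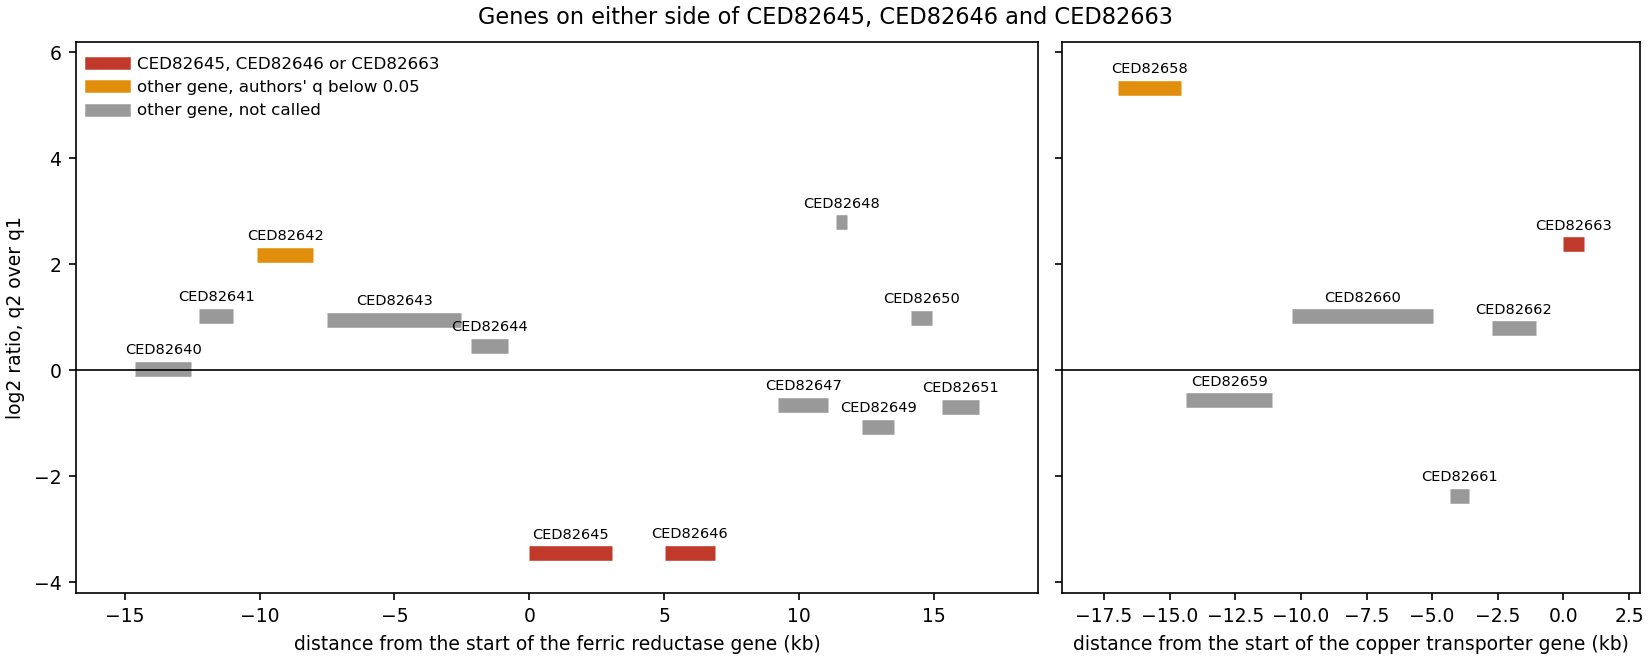
Log2 ratio of q2 over q1 (vertical) for the genes around the ferric reductase and FAS1 pair (left) and the copper transporter (right), drawn to scale by distance in kb from the start of the ferric reductase or copper transporter gene. The pair lies at -3.46 and -3.45 while the genes on either side range from -1.06 to 2.79.

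Adjacent pairs of called genes were counted over the table, where 1.88% of all tested genes were called lower and 3.65% higher. Of 6151 adjacent pairs of tested genes, 9 had both called lower, 9 had both called higher and 6 were called in opposite directions. Whether called genes lie side by side more often than those shares would give was not tested. Among the 9 lower pairs, the ferric reductase and FAS1 pair was the only one with both log2 ratios below -3; in 1 pair both genes were listed at 0 in q2 and have no ratio. Its genes belong to different runs of locus numbers, as in 3 of those 9 pairs and in 4016 of all 6151. The pair was chosen for its values, so these counts describe where it stands and are no test.

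The genes whose values in both conditions came nearest to the 3 were found by distance in log2(FPKM + 1). The search covered genes with a description and left the 3 themselves out. With only q2 and q1 to compare, nearness means a like level in each and nothing more. For the ferric reductase they were the heat shock transcription factor CDZ96670 (distance 0.57; 3.35 FPKM in q2, 37.2 in q1), the alpha beta-hydrolase CED85434 (0.66), the polyamine transporter CED83626 (0.69), the phosphatase-family gene CED83890 (0.84) and the glycosyl transferase CED84039 (0.85). The FAS1 gene shared CED85434 (0.44) and CED83626 (0.47) among its nearest, followed by the methyltransferase-domain gene CED85116 (0.65), the putative fluoride ion transporter CED84019 (0.75) and the SO1590-like gene CED85532 (0.79). Nearest to the copper transporter were an isopenicillin N synthase-like gene, CED83769 (0.16; 35.7 FPKM in q2, 7.40 in q1), and a second photolyase/cryptochrome, CDZ97756 (0.18; 38.5 in q2, 6.67 in q1). The transporters CED85516 (0.22) and CED85202 (0.23) and CED83983, of unknown function (0.27), came after them. None of these 13 genes is on scaffold 33, where the 3 genes left out of the search lie. The ferric reductase and the FAS1 gene, close in level in both conditions, were therefore not listed for each other.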

How the data were processed

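Libraries from the RNA of 6 cultures were made with an Illumina stranded mRNA prep kit, per the labels' protocols. Cuffdiff and Cufflinks, TopHat, Trimmomatic and FastQC are named in the submitters' processing notes. Their versions, the genome build and the annotation: not given in the sources used here. For each gene the authors' deposited table has an FPKM value in either condition and, per the file headers, a log2 ratio of q2 over q1, a p-value and a q-value. Its sheets that list all genes agreed in every cell compared. Recomputed log2 ratios and Benjamini-Hochberg q-values differed from those deposited by at most 1.38e-05 and 5.26e-07. No values of single libraries were used, so depth is unknown and no test over cultures was run.

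A gene was called at an authors' q-value below 0.05 (Cuffdiff). The implied error is the absolute log2 ratio divided by the normal quantile of the two-sided p-value; at the p-value floor of 5e-05, reached by 139 genes, it is an upper bound. Starts are the file's start plus 1: among 458 genes spanning under 600 bases, 254 then have a length divisible by 3. The metal lists were matched by words in gene names, and 13 entries were removed by hand (manganese enzymes, a ribosomal protein and genes kept on another list). The 3 genes and the lists were chosen with earlier results of these data known. Named genes are the 3, their neighbours within 5 places, called, extreme and most abundant list genes and family members. The 5 nearest described genes outside the 3 are also named. Python 3.11.15, pandas 2.3.3 and scipy 1.17.1 were used, and the error and adjustment steps were tested on simulated data. Alternatives changed the pseudocount, scaling, filter, threshold, list and window.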

Additional observations from a re-analysis of the deposited data

How the results depend on the processing

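The 3 genes kept their direction under all 5 alternatives. With pseudocounts of 1 and 0.1 FPKM, centring, and shares of the FPKM sum without ribosomal protein genes, the log2 ratio lay between -3.87 and -3.20 for CED82645, between -3.86 and -3.22 for CED82646 and between 1.96 and 2.37 for CED82663. The implied errors of CED82645 and CED82646 are upper bounds (at most 0.85 each), so whether those moves are within the error cannot be said. As a share of the whole FPKM sum, CED82645 stood at -4.53, CED82646 at -4.52 and CED82663 at 1.31. That scaling moved the median log2 ratio of each list to -1.41 for reductive iron uptake, -0.98 for siderophores, -0.90 for copper, -1.04 for other metal carriers, -1.04 for mitochondrial iron, -0.70 for haem, -1.18 for iron and copper enzymes, -1.31 for FAS1 genes, -1.29 for flavoreductases and -0.98 for regulators. It subtracts the same 1.07 from every ratio by construction.

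At a q-value below 0.01, 1 of the 91 metal genes was called, against 5 at 0.05, with 0 left in haem synthesis, iron and copper enzymes, FAS1 genes and regulators. At an unadjusted p below 0.05, 14 passed: 1 each in reductive iron uptake, siderophores, copper, other metal carriers, FAS1 genes and regulators, 4 in mitochondrial iron, and 2 each in haem synthesis and the enzymes. Over all tested genes, 5.53% were called at a q-value below 0.05, 3.06% at 0.01, and 14.6% had an unadjusted p below 0.05. Among neighbours, 1 of 9 was called within 3 places, against 2 of 15 within 5 and 2 of 26 within 10. Of 111 alternatives, 26 moved a result and 85 stayed within the limit used. That limit was 1.5 times for a count and the implied error or its upper bound for a ratio. The rule used counted 0 as reversed, but some list medians changed sign. Division by the FPKM sums took the median log2 ratio from 0.37 to -0.70 for haem synthesis and from 0.16 to -0.90 for copper. Centring took it from 0.09 to -0.02 for siderophores and for regulators. It went from 0.03 to -0.09 for other metal carriers and from 0.03 to -0.08 for mitochondrial iron. Sums without ribosomal protein genes also turned the sign, with medians of -0.05 for haem synthesis and -0.25 for copper. No paired analysis was possible because the table gives 1 value per condition, which also prevents leaving out a culture. Depth is unknown, so how firmly low values such as 4.62 FPKM are set cannot be said.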
